A study of Mus musculus with 23 samples.

Results

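The 35 genes described here carry out glycolysis or belong to the response to low oxygen, and they were taken by symbol from a list of enzymes, transporters, regulators and hypoxia targets. All 35 were found among the 21878 genes of the neutrophil tables. They comprise 3 transporters, 3 hexokinases, 7 upper and 6 lower enzymes of glycolysis, 3 regulators of its flux, Hif1a with 2 prolyl hydroxylases, and 10 targets of hypoxia-inducible factor (HIF) outside glycolysis. The study asked by bulk RNA-Seq whether mouse neutrophils differ between tissues and whether the mechanically gated ion channel PIEZO1 contributes to that difference. The first experiment held neutrophils of WT mice from lung, peripheral blood (PB) and bone marrow (BM), with 3 libraries each, and the Piezo1 experiment held lung and PB neutrophils of WT and Piezo1-cKO mice, with 2 libraries each. In the Piezo1-cKO mice, loxP-flanked Piezo1 exons were removed by Vav1-iCre, which is active in all blood cell lineages and not in neutrophils alone. Mice were young adults of either sex, lungs were perfused, and CD45+CD11b+Ly6G+ cells were sorted in every group, after a negative selection step for PB and lung. The study's tissue methods describe a warm incubation of lung with collagenase and DNase, and no enzyme step for PB or BM. Source and preparation therefore cannot be told apart in any comparison of lung with PB or BM. The labels give the WT groups no allele, agent or age, and the 6 whole-lung samples of the series were not used here.

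Glycolysis splits glucose into pyruvate in the cytosol and yields ATP without oxygen, and neutrophils, which have few mitochondria, are known to depend on it. When oxygen is scarce, the prolyl hydroxylases encoded by Egln genes stop marking HIF-1α, the protein of Hif1a, for destruction, and HIF then raises transcription of glucose transporters, glycolytic enzymes and genes such as Bnip3 and Egln3 itself. HIF-1α is controlled mainly at the level of the protein, which was not measured here.

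HIF binds the DNA core ACGTG or GCGTG, so the 250 bases before the transcription start were searched for both on either strand (RefSeq promoter table, build GRCm38.p6). Of the 35 members, 32 had an entry, with 47 windows between them. At least 1 core was held by 39 of these 47 windows (83.0%), and by 38.6% of all 32851 promoter windows of the same length. ACGTG was in 53.2% of the members' windows and in 16.6% of all windows, and GCGTG was in 53.2% and 28.2%. Both cores contain CG, and the median number of CG pairs was 14 in the members' windows and 6 in all windows, a difference whose part in these shares was not tested. The 4 windows below show what members of opposite direction share: Slc2a1 and Slc16a3 rose in lung neutrophils, Bnip3 and Egln3 fell there in the first experiment, and all 4 hold a core. Each is written 5′ to 3′ on the gene's strand, ends at the base before the start, and has the cores on either strand in capitals.
Slc2a1, chr4:119108495-119108744, plus strand: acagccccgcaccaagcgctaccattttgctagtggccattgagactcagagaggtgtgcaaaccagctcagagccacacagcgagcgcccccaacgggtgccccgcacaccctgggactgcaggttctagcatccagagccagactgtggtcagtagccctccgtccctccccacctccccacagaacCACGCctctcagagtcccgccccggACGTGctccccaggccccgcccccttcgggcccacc
Slc16a3, chr11:120948817-120949066, plus strand: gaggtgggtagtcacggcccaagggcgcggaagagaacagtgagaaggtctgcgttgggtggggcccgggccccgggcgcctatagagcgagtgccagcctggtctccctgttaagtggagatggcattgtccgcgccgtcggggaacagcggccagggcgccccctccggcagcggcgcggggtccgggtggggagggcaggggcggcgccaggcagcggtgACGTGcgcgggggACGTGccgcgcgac
Bnip3, chr7:138909507-138909756, minus strand: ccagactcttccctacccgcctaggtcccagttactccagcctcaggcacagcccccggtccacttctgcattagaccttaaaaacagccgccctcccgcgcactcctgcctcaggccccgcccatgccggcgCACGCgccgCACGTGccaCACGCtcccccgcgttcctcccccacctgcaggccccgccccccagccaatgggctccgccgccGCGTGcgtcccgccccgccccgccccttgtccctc
Egln3, chr12:54203875-54204124, minus strand: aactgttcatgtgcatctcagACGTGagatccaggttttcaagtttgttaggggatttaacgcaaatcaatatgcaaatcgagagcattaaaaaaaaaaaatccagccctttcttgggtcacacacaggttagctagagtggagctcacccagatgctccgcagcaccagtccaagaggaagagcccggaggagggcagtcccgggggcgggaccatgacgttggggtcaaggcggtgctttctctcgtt
Slc2a1 holds 2 matches, Slc16a3 holds 2, Bnip3 holds 5, of which the ACGTG matches on either strand overlap in 1 place, and Egln3 holds 1, which starts 229 bases before the gene. All 6 members that rose in lung against PB and all 5 that fell have a core in at least 1 window, as do 16 of the 18 uncalled members with an entry. A match is a description of the sequence and not a bound site.

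Values are FPKM, that is reads scaled by transcript length and by the depth of the library, so levels can be set against each other between genes. Libraries held 16502137 to 19330671 reads over genes in the first experiment and 9621001 to 15034613 in the Piezo1 experiment, as recovered from the FPKM values. Piezo1 was represented in lung by 8 and 8 reads (WT) and 7 and 4 reads (Piezo1-cKO), and in PB by 5 and 5 reads (WT) and 3 and 10 reads (Piezo1-cKO), so its level does not check the genotype labels. Replicates differed by more than sampling noise in all groups, with a chi-square per degree of freedom of 1.90 to 4.77 for most pairs, but of 24.6 and 41.0 for the pairs that hold PB replicate 3 of the first experiment. In that library all 6 lower glycolytic enzymes were above the mean of the other PB libraries, by a median of 0.37 on the log2 scale, while the median gene was at -0.023. Neutrophil markers summed to 43900 to 146500 FPKM over all libraries, and the defining markers of T and NK cells, B cells and dendritic cells were at or near 0, with sums of at most 6.47, 0.945 and 0.854 FPKM. Monocyte and macrophage markers, some of which neutrophils also express, summed to 326 to 330 FPKM in lung, 358 to 424 in PB and 710 to 848 in BM of the first experiment, and to 424 to 581 in the Piezo1 experiment. Erythroid markers summed to 1011 to 1136 FPKM in Piezo1-cKO PB and to 24.9 to 26.8 in WT PB of the same experiment. Immature neutrophil markers summed to 36850 to 37990 FPKM in BM and to at most 3219 in any lung or PB library.

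A gene was called changed at an adjusted p below 0.05 (limma, Benjamini-Hochberg over all genes tested) together with a log2 difference beyond 1 on the log2(FPKM + 1) scale. The median of all genes tested lay at -0.54 in lung against PB and at -0.70 in lung against BM, so differences are also given relative to that median where they are near it. In lung against PB, 6 of 32 members tested were called higher, where 7.75% of all genes tested were, and 5 were called lower, where 19.5% were. After each library was rescaled by its median ratio, which put the median gene at -0.021, the members called were 7 higher and 2 lower, and all genes called were 936 higher and 510 lower in place of 587 and 1476. The median member stood at -0.60, or at -0.060 relative to the median gene. The members thus did not move as a block. Leaving out PB replicate 3 changed no member's call in this comparison. In these bulk samples, fewer cells of a type and less RNA per cell cannot be told apart.

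**Figure D1:**
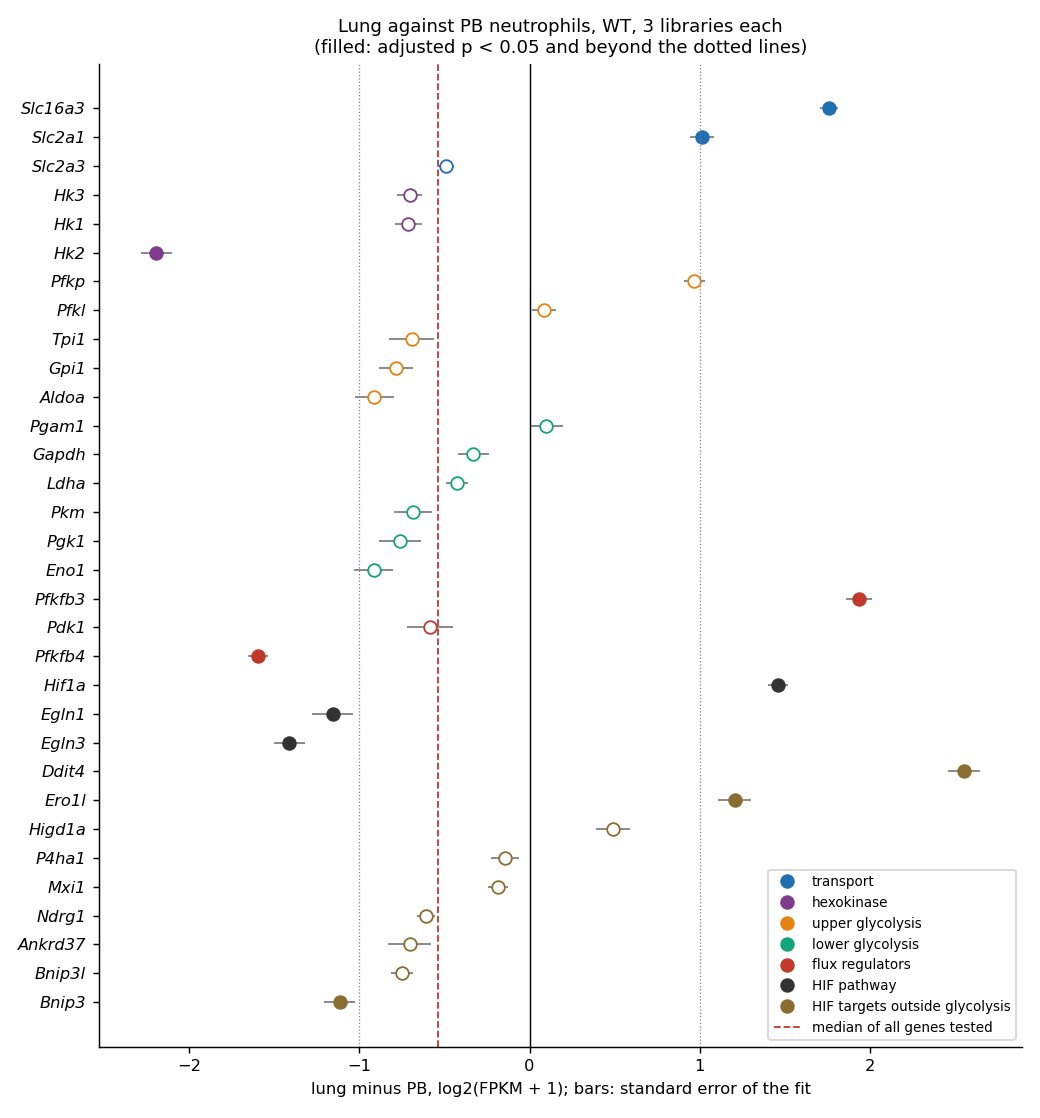
Lung minus PB difference of the 32 members tested in the first experiment, on the log2(FPKM + 1) scale, with 3 libraries a group; points are coloured by role, filled where called, bars are standard errors, and the dashed line is the median of all genes tested at -0.54. The transporters Slc16a3 and Slc2a1, Pfkfb3, Hif1a, Ddit4 and Ero1l lie to the right of 1, while most enzymes lie near the dashed line.

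Of the transporters, the 2 best known as HIF targets rose in lung neutrophils. Slc16a3 encodes the monocarboxylate transporter MCT4, which exports lactate. Slc16a3 was at 788, 786 and 792 FPKM in lung, 228, 224 and 245 in PB and 154, 159 and 154 in BM. The groups did not overlap, and the lung level was the highest of all 35 members in that tissue. Of all genes tested, 86.2% did not overlap in lung against PB, 92.9% in lung against BM and 76.8% in PB against BM. Lung exceeded PB by 1.76 ± 0.054 (log2 difference ± standard error, n = 3 a group, limma adjusted p = 4.03e-08). In the Piezo1 experiment Slc16a3 was at 919 and 913 FPKM in WT lung and 182 and 175 in WT PB, a log2 difference of 2.35 ± 0.025. Slc2a1 encodes the glucose transporter GLUT1. Its level was 185, 185 and 187 FPKM in lung, 87.5, 85.9 and 102 in PB and 26.1, 27.7 and 26.4 in BM, so that the 3 sources again stood apart, in the order lung, PB, BM. The difference between lung and PB was 1.01 ± 0.071 (adjusted p = 3.71e-06), just inside the limit for a call, and it was 0.98 without PB replicate 1 and 0.97 without PB replicate 2. In WT mice of the Piezo1 experiment Slc2a1 was at 229 and 233 FPKM in lung and 105 and 105 in PB, a difference of 1.13 ± 0.027. Slc2a3, which encodes the high-affinity glucose transporter GLUT3, went the other way as deposited, with 159 to 166 FPKM in lung, 224 to 232 in PB and 282 to 296 in BM, but at -0.49 it lay 0.047 above the median gene, and after rescaling it was at 0.12. The ratio of Slc2a1 to Slc2a3 within a library, which no scaling can change, was 1.13 to 1.16 in lung, 0.373 to 0.455 in PB and 0.0892 to 0.0959 in BM. This ratio and the 2 below were chosen after their values were seen and carry no test.

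The flux regulators moved in opposite directions. Pfkfb3 and Pfkfb4 encode bifunctional enzymes that set the level of fructose 2,6-bisphosphate, the main activator of phosphofructokinase. Pfkfb3 was at 71.3, 75.8 and 71.4 FPKM in lung, 18.4, 20.2 and 16.5 in PB and 25.7, 26.1 and 26.3 in BM, and rose in lung by 1.94 ± 0.076 against PB (adjusted p = 1.57e-07). Pfkfb4 was at 32.4, 33.5 and 35.2 FPKM in lung, 105, 108 and 98.6 in PB and 82.0, 84.8 and 85.0 in BM, and its difference from PB was -1.597 ± 0.059 (adjusted p = 1.07e-07). Within each library, Pfkfb3 stood at 2.03 to 2.26 times Pfkfb4 in lung, at 0.168 to 0.186 times in PB and at 0.307 to 0.314 times in BM. Lung neutrophils thus held more Pfkfb3 than Pfkfb4 message, and PB and BM neutrophils less. In WT mice of the Piezo1 experiment Pfkfb3 was at 32.9 and 34.0 FPKM in lung and 15.9 and 17.8 in PB. That difference of 0.95 ± 0.064 was just short of a call, and became 1.56 after rescaling. Pfkfb4 in the same mice was at 28.6 and 27.3 FPKM in lung and 109 and 106 in PB, a difference of -1.91 ± 0.042, so that Pfkfb4 fell there too. Pdk1, the kinase that inhibits pyruvate dehydrogenase, was nowhere above 2.52 FPKM and was called in none of the comparisons.

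The hexokinases, which trap glucose in the cell as glucose 6-phosphate, were all lowest in lung as deposited. Hk2 was at 3.25, 3.23 and 2.75 FPKM in lung, 16.8, 16.5 and 19.7 in PB and 30.8, 32.6 and 30.8 in BM, and fell in lung, with a difference of -2.19 ± 0.091 from PB (adjusted p = 2.24e-07). Relative to the median gene this was -1.65, the lowest of the members. Hk2 in the Piezo1 experiment was at 0.688 and 0.799 FPKM in WT lung and 3.54 and 3.42 in WT PB, with a difference of -1.36 ± 0.091. Hk3 was the most abundant hexokinase, at 106, 109 and 104 FPKM in lung, 180, 187 and 157 in PB and 356, 362 and 355 in BM. Its WT values in the Piezo1 experiment were 99.7 and 99.96 in lung and 164 and 163 in PB. Hk1 was at 12.0, 10.5 and 11.03 FPKM in lung, 17.8, 18.1 and 20.9 in PB and 35.9, 36.3 and 35.8 in BM, and in WT mice of the Piezo1 experiment at 7.49 and 7.33 in lung and 8.59 and 8.89 in PB. Against PB neither Hk1 (-0.71) nor Hk3 (-0.70) was called, and both lay at -0.17 relative to the median gene.

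None of the 11 enzymes tested between phosphoglucose isomerase and lactate dehydrogenase was called in lung against PB. Their differences ran from -0.92 to 0.97, with medians of -0.15 for the 5 upper and -0.017 for the 6 lower enzymes relative to the median gene. Aldoa, the aldolase of this pathway, was at 175, 181 and 175 FPKM in lung, 319, 286 and 406 in PB and 427, 419 and 421 in BM. Eno1, an enolase, was at 183, 181 and 174, 313, 299.7 and 416 and 481, 478 and 465 FPKM in the same order. In both genes PB replicate 3 stood above the other PB libraries, and without PB replicate 2 both passed the limit for a fall in lung, at -1.02 for Aldoa and -1.005 for Eno1. Gpi1, phosphoglucose isomerase, was at 199, 194 and 194 FPKM in lung, 323, 299 and 398 in PB and 561, 558 and 559 in BM. Tpi1, triose phosphate isomerase, was at 24.2, 25.6 and 25.7, 38.6, 34.8 and 52.1 and 59.9, 60.5 and 57.5 FPKM. For these 4 enzymes, as deposited, lung was lowest and BM highest with no overlap between sources. Lack of overlap was common, at 86.2% of all genes tested in lung against PB, 92.9% in lung against BM and 76.8% in PB against BM. After rescaling the order of means stayed, but only Eno1 still had no overlap between sources, while Gpi1, Aldoa and Tpi1 did overlap. Pgk1, the ATP-forming phosphoglycerate kinase, was at 69.7, 67.9 and 66.5 FPKM in lung, 107, 100.3 and 144 in PB and 256, 256 and 245 in BM. Pgam1, phosphoglycerate mutase, was at 34.4, 38.7 and 34.2 FPKM in lung and 31.9, 29.9 and 38.5 in PB, where the ranges overlapped, and at 76.5, 78.2 and 75.8 in BM. Ldha, which makes lactate from pyruvate, was at 131, 128 and 127 FPKM in lung, 172, 161 and 188 in PB and 267, 261 and 258 in BM. Its difference between lung and PB of -0.42 ± 0.065 lay 0.11 above the median gene and turned to 0.18 after rescaling.

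Among the enzymes not called in any comparison, Pkm, the pyruvate kinase, was the most abundant, at 552 to 556 FPKM in lung, 786 to 1081 in PB and 1009 to 1041 in BM. Gapdh was read at only 21.2 to 46.5 FPKM across the first experiment. Gapdh has many near-identical processed copies in the genome, and how reads shared with them were counted is not given in the sources used here, so its level is uncertain. Other abundant glycolytic enzymes also have processed copies, and the same limit applies to them. Of the phosphofructokinases, which catalyse the committed step, Pfkp was at 22.9 to 24.7 FPKM in lung, 11.2 to 12.0 in PB and 11.9 to 12.8 in BM. Its difference between lung and PB of 0.97 ± 0.060 was just short of a call and reached 1.55 after rescaling. Pfkl was at 6.62 to 8.09 FPKM in all 9 libraries, and the ratio of Pfkp to Pfkl was 3.05 to 3.23 in lung, 1.595 to 1.74 in PB and 1.62 to 1.82 in BM. Pfkm, the muscle type, stayed below 0.30 FPKM and was tested in no comparison. Summed over all 16 enzymes from hexokinase to Ldha, the level was 1525 to 1547 FPKM in lung, 2264 to 2973 in PB and 3575 to 3646 in BM. As a share of the library's summed FPKM over all genes this was 0.37% to 0.38%, 0.56% to 0.68% and 0.71% to 0.75%, in the same order. Neither the sum nor the share was rescaled. The median ratio of a library was 0.739 to 0.742 in lung, 1.11 to 1.14 in PB and 1.16 to 1.175 in BM. A typical gene was thus also lowest in lung as deposited, and no difference between sources was tested for the sum.

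**Figure D2:**
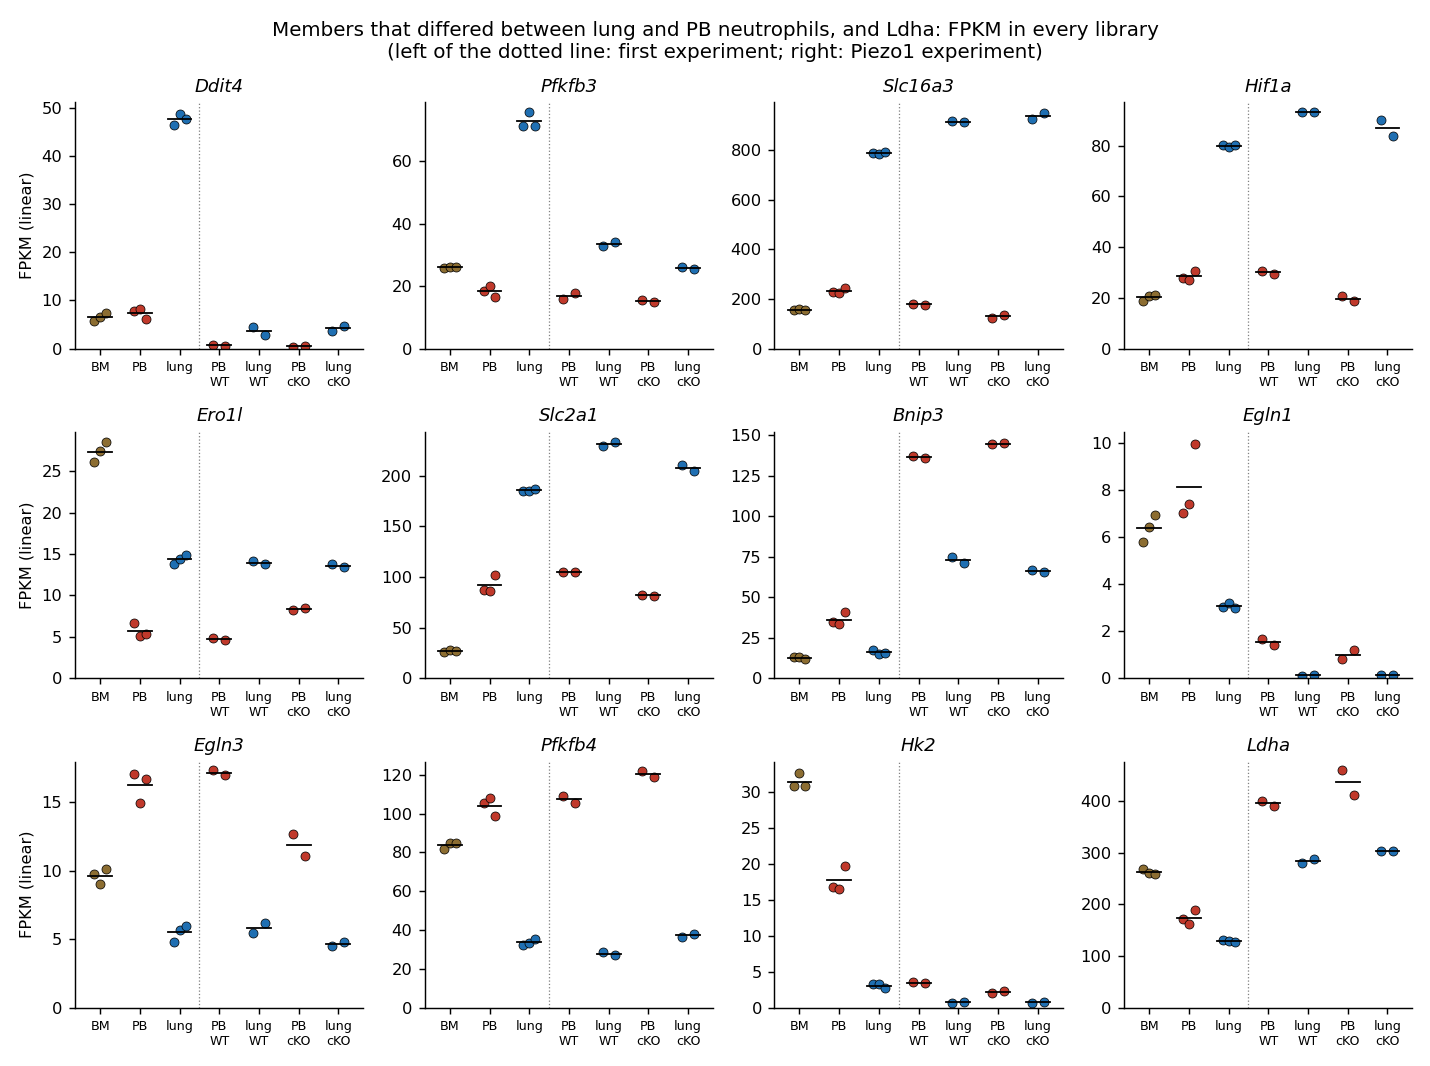
FPKM of the 11 members called in lung against PB, and of Ldha, in every library; dots are libraries, bars are group means, axes are linear and start at 0, and the dotted line divides the first from the Piezo1 experiment. Lung libraries lie above PB for Ddit4, Pfkfb3, Slc16a3, Hif1a, Ero1l and Slc2a1 and below PB for Bnip3, Egln1, Egln3, Pfkfb4 and Hk2 in both experiments.

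Hif1a rose in lung neutrophils while the 2 prolyl hydroxylases fell. Hif1a was at 80.4, 79.3 and 80.2 FPKM in lung, 27.7, 27.1 and 30.7 in PB and 18.9, 20.8 and 21.2 in BM, a difference of 1.46 ± 0.060 between lung and PB (adjusted p = 1.88e-07). Its level in WT mice of the Piezo1 experiment was 93.3 and 93.1 in lung and 30.6 and 29.5 in PB, a difference of 1.60 ± 0.039. Lung and PB were far apart in both experiments. Egln3, which encodes the hydroxylase PHD3, was at 4.82, 5.71 and 5.96 FPKM in lung, 17.1, 14.9 and 16.7 in PB and 9.74, 9.05 and 10.1 in BM, and differed by -1.41 ± 0.090 between lung and PB (adjusted p = 2.2e-06). In WT mice of the Piezo1 experiment Egln3 was at 5.45 and 6.16 FPKM in lung and 17.3 and 16.9 in PB. Egln1 encodes PHD2, the main oxygen sensor of the pathway. It was at 3.04, 3.20 and 2.97 FPKM in lung, 7.03, 7.42 and 9.98 in PB and 5.81, 6.41 and 6.93 in BM, with a difference of -1.16 ± 0.12 (adjusted p = 3.87e-05). Its PB level in WT mice of the Piezo1 experiment was 1.67 and 1.43 FPKM, and its lung level was 0.112 and 0.130. After rescaling, the falls of Egln1 and Egln3 in the first experiment were -0.66 and -0.87, still at adjusted p of 0.00186 and 6.25e-05 but short of the fold limit.

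The 10 HIF targets outside glycolysis did not move together in lung against PB: 2 rose, 1 fell, 6 were not called and P4ha2 was not tested. Ddit4 encodes REDD1, an inhibitor of mTORC1 that is induced by low oxygen and by several other stresses. It had the largest difference of all members, with 46.6, 48.8 and 47.8 FPKM in lung, 7.71, 8.25 and 6.13 in PB and 5.82, 6.66 and 7.43 in BM, or 2.55 ± 0.10 between lung and PB (adjusted p = 1.32e-07). In the Piezo1 experiment Ddit4 was at 4.42 and 2.72 FPKM in WT lung and 0.675 and 0.632 in WT PB, so that the direction was shared but the level in lung was far lower. The experiments were deposited and analysed separately, and this gap was not tested. Ero1l, also named Ero1a, is an oxidase that forms disulfide bonds in the endoplasmic reticulum. It was at 13.8, 14.4 and 14.9 FPKM in lung, 6.70, 5.06 and 5.37 in PB and 26.2, 27.5 and 28.6 in BM, and so was lowest in PB. The rise from PB to lung was 1.20 ± 0.10 (adjusted p = 8.49e-06), and in WT mice of the Piezo1 experiment the levels were 14.2 and 13.8 in lung and 4.84 and 4.58 in PB.

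Bnip3 and Bnip3l encode receptors for the removal of mitochondria. Bnip3 was at 17.6, 15.2 and 15.7 FPKM in lung, 34.6, 33.2 and 40.8 in PB and 13.3, 13.0 and 11.8 in BM, which gave -1.11 ± 0.091 for lung against PB (adjusted p = 8.91e-06) and -0.53 after rescaling. In the Piezo1 experiment Bnip3 was at 75.1 and 71.0 FPKM in WT lung and 137 and 136 in WT PB. PB was thus the source with the most Bnip3 in both. Bnip3l was at 25.2, 24.2 and 24.4 FPKM in lung, 41.9, 39.0 and 45.2 in PB and 51.4, 49.7 and 50.6 in BM, and at 33.2 and 30.9 and 44.0 and 43.4 in WT lung and PB of the Piezo1 experiment. Ankrd37, a small ankyrin repeat protein, was at 2.33, 2.86 and 1.91 FPKM in lung, 5.12, 4.31 and 3.96 in PB and 1.78, 1.46 and 1.71 in BM. It fell in lung against PB in the Piezo1 experiment, from 11.7 and 11.9 to 4.62 and 4.50 FPKM (-1.20 ± 0.070, and -0.64 and no longer called after rescaling), and gave -0.70 ± 0.13 in the first experiment. Higd1a, a mitochondrial inner membrane protein, was at 5.02, 5.09 and 4.95 FPKM in lung, 3.04, 2.95 and 3.96 in PB and 1.78, 2.37 and 1.64 in BM, and at 9.85 and 10.1 and 8.30 and 8.63 in WT lung and PB of the Piezo1 experiment. Of the targets called nowhere, Ndrg1 lay at 41.5 to 44.4 FPKM in lung and 64.4 to 67.0 in PB, Mxi1 at 24.8 to 30.2 in all 9 libraries, and P4ha1, a collagen prolyl hydroxylase, at 1.05 to 3.35. Its relative P4ha2 was at 0 in the first experiment and at most 0.17 in the Piezo1 experiment.

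The WT libraries of the Piezo1 experiment form a separate sample of the same comparison. There 5 of 33 members tested were called higher in lung against PB, where 7.5% of all genes were, and 5 lower, where 26.5% were. After rescaling these counts were 7 and 1, and all genes gave 884 higher and 755 lower in place of 536 and 1893. Of the falls Pfkfb4 stayed called at -1.28, while Hk2 (-0.98), Egln1 (-0.97), Egln3 (-0.84) and Ankrd37 (-0.64) were then short of the fold limit. Of the 11 members called in the first experiment all 11 had the same sign in the second, and 9 were called in both. Among these 9, Ddit4, Hk2 and Egln1 passed the filter of the second experiment only through the tissue where they were high. Their direction there was thus set by the filter and does not count as a separate result. Among the 32 members tested in both, 30 shared their sign, and Pearson's r across these genes was 0.92 (Spearman's rho 0.86), given as a description since genes are not independent replicates. Pfkl and Pgam1 were the 2 that did not share it. The median of all genes tested was itself below 0 in both experiments, at -0.54 and -0.62. Below 0 were 22 of the 32 members tested in the first experiment and 25 of the 33 in the second. How many of all genes shared their sign was not counted. In Piezo1-cKO mice 4 of 31 members were called higher in lung against PB (7.93% of all genes) and 5 lower (23.0%), against 8 and 1 after rescaling, when all genes gave 910 higher and 615 lower in place of 568 and 1644. Slc2a1, Slc16a3, Hif1a and Ddit4 were the 4 that rose, as they had in WT mice, and Pfkfb4, Egln3 and Ankrd37 were called lower in both genotypes. Of these 3, Pfkfb4 alone was called after rescaling, also in both. Erythroid markers were called lower in lung against PB for 3 of 3 tested in WT and 5 of 5 in Piezo1-cKO mice, and immature neutrophil markers for 4 of 6 and 5 of 5, and their part in these calls was not tested. Ddit4 was below 1 FPKM in PB of both genotypes, so it passed the filter through lung alone in each. Its calls rest on 2 libraries at low level: without either lung library too few libraries reached 1 FPKM for a test in that genotype. The same held in WT mice for Hk2 and Egln1 without either PB library.

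**Figure D3:**
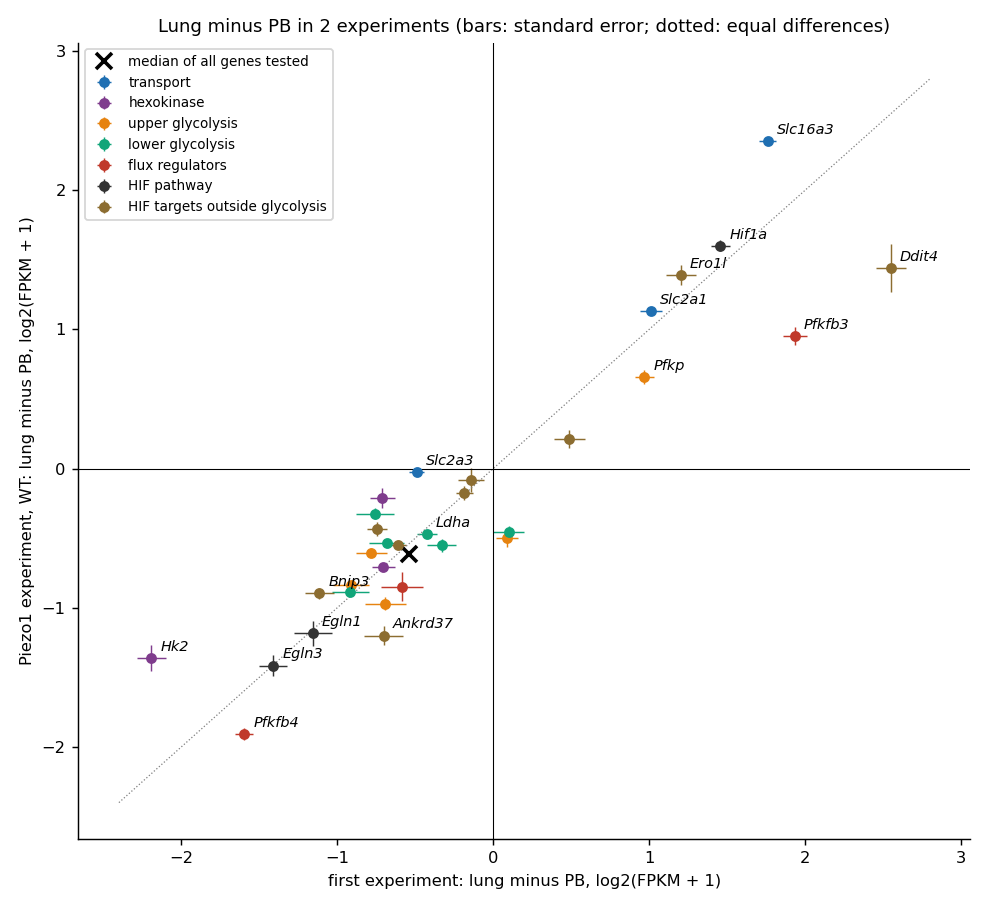
Lung minus PB difference of the 32 members tested in both experiments, on the log2(FPKM + 1) scale: first experiment (3 libraries a group) on the x axis, WT mice of the Piezo1 experiment (2 libraries a group) on the y axis, with standard errors as bars and the median of all genes as a cross. Points lie along the line of equal differences, with Ddit4 and Pfkfb3 below it and Slc16a3 above it.

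Against BM, Slc2a1, Slc16a3, Hif1a, Pfkfb3 and Ddit4 rose in lung neutrophils, in a comparison that shares its lung libraries with that against PB. Of 31 members tested in lung against BM, 6 were called higher (9.86% of all genes) and 12 lower (36.0% of all genes). For the members called lower, the share was near that of all genes. After rescaling the counts were 8 and 3, and all genes gave 1382 higher and 1467 lower in place of 812 and 2965. The 6 that rose were Slc2a1 (2.75 ± 0.030, adjusted p = 2.66e-13), Ddit4 (2.68), Slc16a3 (2.33), Hif1a (1.93), Pfkfb3 (1.45) and Higd1a (1.05). Hk2 at -2.99 ± 0.062, Pgk1 at -1.88 ± 0.029 and Hk3 at -1.74 ± 0.024 were the falls that also passed after rescaling. The other 9 lay between -1.61 (Hk1) and -1.01 (Bnip3l) and were Hk1, Gpi1, Pfkfb4, Aldoa, Tpi1, Pgam1, Eno1, Ldha and Bnip3l. Bnip3l was at -0.999 without lung replicate 2 and at -0.998 without BM replicate 1, and not called, and Higd1a was at 0.98 without BM replicate 3.

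Of 32 members tested in PB against BM, 3 were called higher (7.85% of all genes) and 4 lower (14.1%). Slc2a1 rose by 1.74 ± 0.073 (adjusted p = 2.81e-07), Bnip3 by 1.44 ± 0.087 and Ankrd37 by 1.04 ± 0.10. Ero1l, Pgam1, Pgk1 and Hk3 fell, with differences of -2.09 ± 0.10, -1.18 ± 0.089, -1.12 ± 0.12 and -1.03 ± 0.071 in that order. Hk3 was at -0.96 without PB replicate 3, and Ankrd37 at 0.96 without PB replicate 1 and at 0.99 without BM replicate 2, short of a call in each case. Immature neutrophil markers were far higher in BM, as given above. Immediate early genes, which respond to stimulation and handling, summed to 1688 to 1705 FPKM in BM, 8876 to 9929 in PB and 9084 to 9223 in lung. Of 6 monocyte and macrophage markers tested, 3 were called higher and 2 lower in lung against BM, and 4 higher and 2 lower in PB against BM. The part of these 3 lists in the differences from BM was not tested. By group means, 14 of the 32 members that reached 1 FPKM in the first experiment followed the order BM, PB, lung, 11 of them enzymes, and 5 followed the reverse order (Slc2a1, Slc16a3, Hif1a, Ddit4 and Higd1a). After rescaling these counts were 10 and 8. The median of all genes tested lay at -0.12 in PB against BM and at -0.54 in lung against PB as deposited. The order BM, PB, lung was thus also that of the median differences. How many of all genes followed each order was not counted. PB was highest for Pfkfb4, Egln1, Egln3, Pdk1, Bnip3, P4ha1, Ndrg1 and Ankrd37 as deposited.

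Calls between Piezo1-cKO and WT neutrophils were rare among all genes, so their rarity among the members says little about these genes. In lung neutrophils none of 29 members tested was called higher (0.793% of all genes) or lower (0.202%). At an adjusted p below 0.05 alone, 7 were higher (35% of all genes) and 12 lower (15.8%). Set against the median of all genes tested, 6 members lay above it and 23 below it. The median member was at -0.16 relative to that median. Pgk1 was at 33.2 and 29.2 FPKM in Piezo1-cKO lung and 50.4 and 48.5 in WT lung, a difference of -0.65 ± 0.063 (n = 2 a group, limma adjusted p = 0.000357), the largest of the members in this tissue. Pfkfb3 was at 26.1 and 25.4 FPKM in Piezo1-cKO lung, or -0.36 ± 0.047, and Pfkfb4 at 36.6 and 37.8, or 0.40 ± 0.048. The ratio of Pfkfb3 to Pfkfb4 was 0.672 to 0.712 in Piezo1-cKO lung, 1.15 to 1.25 in WT lung, 0.125 to 0.127 in Piezo1-cKO PB and 0.146 to 0.169 in WT PB. Hif1a in Piezo1-cKO lung was at 90.2 and 83.7 FPKM (-0.10 ± 0.042, adjusted p = 0.0825), Slc2a1 at 210.5 and 205 (-0.15 ± 0.027) and Slc16a3 at 925 and 952 (0.035 ± 0.021). Ldha was at 303 and 302 FPKM there and at 280.3 and 288 in WT lung. For Hif1a, Slc2a1 and Slc16a3 the genotypes thus lay within a fraction of the distance between lung and PB.

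In PB, 0 of 32 members were called higher in Piezo1-cKO (1.68% of all genes) and 1 lower (1.97%), and at an adjusted p below 0.05 alone 6 were higher (26.5% of all genes) and 12 lower (23.2%). The call was Aldoc, an aldolase of low abundance here, at 1.08 and 1.48 FPKM in WT PB and 0 in both Piezo1-cKO PB libraries. In lung it was at 0.748 and 0.718 in WT and 0.118 and 0.171 in Piezo1-cKO mice, and in the first experiment at 0.23 to 0.49 in all 9 libraries. Aldoc passed the filter only through WT PB, which set its direction. It could not be tested without either WT PB library, nor after rescaling, since it then fell below the filter, and no member was called in PB after rescaling. Ero1l was at 8.23 and 8.44 FPKM in Piezo1-cKO PB, or 0.71 ± 0.080 against WT (adjusted p = 0.00079). Hif1a was at 20.7 and 18.7 (-0.59 ± 0.070, adjusted p = 0.000924), Slc16a3 at 122 and 137 (-0.46 ± 0.062) and Slc2a1 at 82.4 and 81.6 (-0.35 ± 0.044). All 3 transporters thus had lower values in Piezo1-cKO PB, with log2 differences of -0.46 to -0.32. The genotypes did not overlap, which also held for 77.3% of all genes tested in PB. Egln3 was at 12.7 and 11.1 FPKM and Hk2 at 2.02 and 2.31, both below their WT values. Pfkfb3 was at 15.5 and 14.9 and Ldha at 459 and 412 FPKM, against 399 and 390.4 for Ldha in WT PB. The raised erythroid markers in Piezo1-cKO PB stand beside each of these differences, as do immature neutrophil markers, which summed to 3080 to 3219 FPKM there and to 1941 to 1951 in WT PB. The part of either was not tested.

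The remaining enzymes and targets had these levels in the Piezo1 experiment. In lung, Gpi1 was at 161 and 152 FPKM (WT) and 186 and 185 (Piezo1-cKO), in PB it was at 242 and 235 (WT) and 313 and 306 (Piezo1-cKO), and it had higher values in Piezo1-cKO mice in both tissues (0.24 and 0.37). Aldoa, in the same order, was at 353 and 339, 288 and 289, 626 and 607, and 559 and 569 FPKM. Eno1 was at 357 and 352, 320.4 and 299.7, 662 and 653, and 586 and 535. Both had lower values in Piezo1-cKO mice in either tissue, with -0.26 in lung and -0.13 in PB for Aldoa and -0.19 and -0.23 for Eno1. Tpi1 was at 23.1 and 23.1, 21.6 and 22.6, 45.1 and 47.5, and 47.9 and 51.6 FPKM. Pgam1 was at 45.9 and 46.5, 45.1 and 42.6, 62.3 and 65.2, and 70.5 and 60.8. For these 2 the log2 differences between genotypes ran from -0.074 to 0.10. Pgk1 in PB was at 61.6 and 62.7 FPKM in WT and 59.6 and 54.6 in Piezo1-cKO mice. Among the hexokinases of Piezo1-cKO mice, Hk1 was at 8.97 and 8.44 FPKM in lung and 9.83 and 9.19 in PB. Hk3 was at 106 and 107 in lung and 161 and 158 in PB, and Hk2 was at 0.684 and 0.805 in lung. All 3 had lower values in lung than in PB, as in WT mice. Egln1 was at 0.114 and 0.137 FPKM in Piezo1-cKO lung and 0.811 and 1.20 in Piezo1-cKO PB, so that it stayed below the filter in lung of either genotype. Egln3 was at 4.52 and 4.77 in Piezo1-cKO lung, and Pfkfb4 was at 122 and 119 in Piezo1-cKO PB. Bnip3 in Piezo1-cKO mice was at 67.1 and 65.6 FPKM in lung and 144 and 146 in PB, and Bnip3l was at 33.4 and 33.0 in lung and 52.3 and 49.9 in PB. Both mitophagy receptors had higher values in PB than in lung here too. Ankrd37 was at 4.49 and 4.38 FPKM in lung and 10.9 and 10.7 in PB of these mice. Higd1a was at 7.64 and 7.48 in lung and 8.53 and 9.34 in PB, an order opposite to that of WT mice. Ddit4 was at 3.63 and 4.79 FPKM in lung and 0.370 and 0.503 in PB, and Ero1l in lung was at 13.8 and 13.4.

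**Figure D4:**
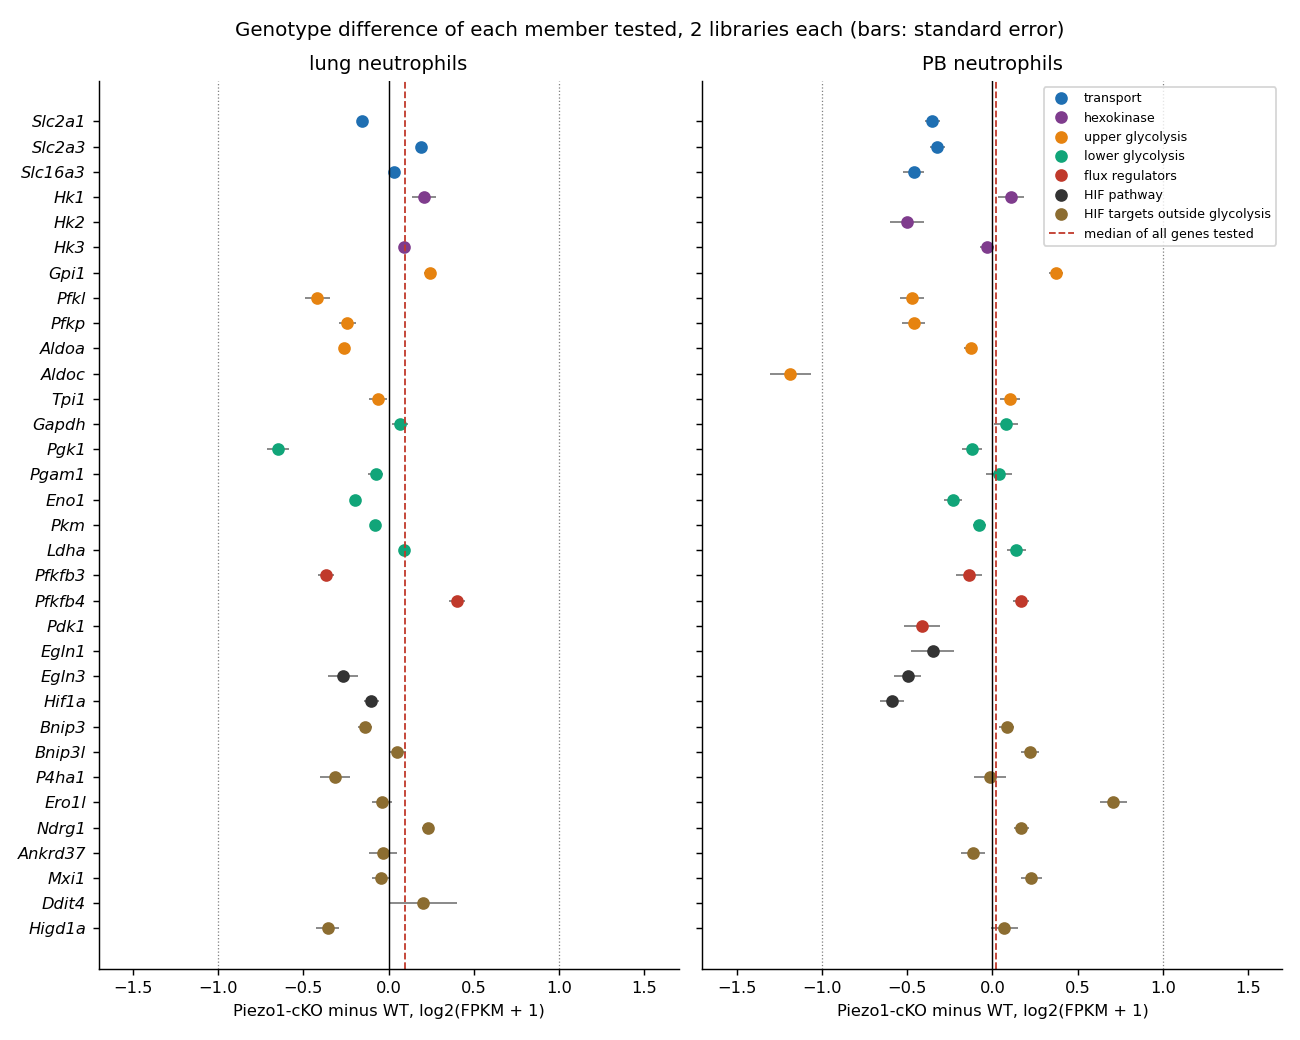
Piezo1-cKO minus WT difference of each member tested, on the log2(FPKM + 1) scale, in lung neutrophils (left) and PB neutrophils (right), with 2 libraries a group and standard errors as bars; the dotted lines mark the fold limit and the dashed line the median of all genes tested. In lung every member lies between the dotted lines, and in PB only Aldoc lies outside them.

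Whether the genotype difference itself depends on tissue was tested as an interaction. None of 33 members tested was called, where 4.29% of all genes were called higher and 2.57% lower. At an adjusted p below 0.05 alone, 9 members were higher (29.7% of all genes) and 6 lower (18.5%). Slc2a3 had the smallest p among them, with lung levels of 201 and 199 FPKM (WT) against 229.7 and 227 (Piezo1-cKO) and PB levels of 206 and 201 (WT) against 166 and 159 (Piezo1-cKO). Its genotype difference was 0.19 in lung and -0.32 in PB, and the interaction was 0.51 ± 0.048 (limma adjusted p = 0.000133). Hif1a and Slc16a3 differed in the same sense, since both were lower in Piezo1-cKO PB while the lung levels of the genotypes lay close together, with interactions of 0.49 ± 0.083 (adjusted p = 0.00175) and 0.49 ± 0.071 (adjusted p = 0.000776). Ero1l had the opposite pattern, with higher values in Piezo1-cKO PB and lung levels close together, and an interaction of -0.75 ± 0.089 (adjusted p = 0.00035).

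Genes of neighbouring pathways were counted in the same way in lung against PB of the first experiment. Among 34 other hypoxia response genes, 20 were tested, of which 6 were called higher and 3 lower, beside the 7.75% and 19.5% of all genes given above. Of those called higher, Hilpda and Adora2b were below 1 FPKM in every PB library and passed the filter only through lung, which set their direction. Bnip1, called lower, was at 0.475 to 1.02 FPKM in lung and passed the filter through PB. Hilpda, a lipid droplet protein induced by HIF, was at 158 to 176 FPKM in lung and at 0.295 to 0.584 in PB (6.86 ± 0.086, adjusted p = 8.47e-10), Vegfa, which drives vessel growth, was at 149 to 154 and 9.03 to 13.5 (3.58 ± 0.13), and the transcriptional repressor Bhlhe40 rose by 3.52 ± 0.058. Hif1an, an asparagine hydroxylase that inhibits HIF, fell by 1.59 on the log2 scale. Of the 8 pentose phosphate genes, all were tested, 0 rose and 4 fell. The falls were H6pd (-1.72 ± 0.074), Pgd (-1.44 ± 0.099), G6pdx (-1.15) and Tkt (-1.07). The median of all genes tested was itself at -0.54, and the median of this list lay at -0.38 relative to it. Whether these falls and that of Hif1an stay called after rescaling is not given here. Hilpda, Vegfa, Bhlhe40, H6pd, Hif1an and Pgd were named for having the largest rises and falls in these lists. Among 20 other glycolysis genes 6 were tested, 1 was called higher and 0 lower. Of 12 genes of pyruvate entry to mitochondria 7 were tested and 1 was called higher, and of 10 glycogen genes 9 were tested and 2 were called lower. In Piezo1-cKO lung, Vegfa was at 46.4 to 49.0 FPKM against 91.0 to 92.3 in WT lung (-0.93) and Hilpda at 388 to 400 against 554 to 564 (-0.50), neither past the fold limit, and no gene tested from these 5 lists was called. In Piezo1-cKO PB, Ldhb (1.38 ± 0.099) and Bpgm (1.5 ± 0.16) were called higher. Pgam2, the muscle type of phosphoglycerate mutase, was called lower (-1.12 ± 0.12). In WT PB, Ldhb was at 0.10 to 0.12 FPKM and Bpgm at 0.84 to 0.95, and in Piezo1-cKO PB Pgam2 was at 0.31 to 0.34. Each thus passed the filter only through the group where it was high, which set its direction. Erythroid markers were also raised in Piezo1-cKO PB, and their part was not tested. These 3 genes were named after their values were seen.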

How the data were processed

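Libraries were polyA-selected, and the labels name fastp, HISAT2, HTSeq and mm10 without versions or settings. The authors deposited FPKM per gene in 1 table for the first experiment and in 2 for the Piezo1 experiment, 1 of lung and 1 of PB libraries. Lung against PB and the interaction in the Piezo1 experiment therefore cross 2 tables. The gene lengths implied by recovered reads, library total and FPKM differed by at most 0.00408% between its libraries, so FPKM was scaled by each library's own total in both tables. Those 2 tables also hold the authors' means, fold changes, p-values and q-values, which were not used. Whole reads could be recovered from the FPKM of 100% of detected genes (tolerance 0.02 reads) and gave the depths and a count-type alternative (voom). Each experiment was analysed separately. Genes at 1 FPKM or more in at least 3 libraries (first experiment) or 2 (Piezo1 experiment) were tested on log2(FPKM + 1), a scale that understates changes of low genes, with limma 3.58.1 (trend and robust, R 4.3.3) and Benjamini-Hochberg adjustment over all genes tested. The same fit recovered 100% of genes simulated with a log2 change of 2 for lung against PB. In that simulation both groups were drawn around the PB means, without a shift of the median gene, and only well expressed genes were changed. It therefore does not cover low genes, calls near the fold limit or the effect of scaling. Intervals were not computed, and FPKM errors are standard errors of the fit. The tables were joined by gene identifier, and promoter coordinates are those of RefSeq GRCm38.p6, the assembly that mm10 corresponds to. The study gives 3 mice for the first experiment, without saying whether the tissues came from the same mice. For the 2 replicates a group of the Piezo1 experiment neither the labels nor the text tie libraries to mice, so p-values there measure only the spread between these samples, which may be technical. Members called in at least 1 comparison, with Hif1a, Pfkfb3, Slc2a1 and Ldha, were given in every library. Members and lists were chosen with earlier results of these data known. Tried as alternatives were rescaling by the median ratio, a pseudocount of 0.1, no filter, voom, 1 fit over all groups, a replicate block, adjusted p alone and leaving out each library.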

Additional observations from a re-analysis of the deposited data

Results flagged for a closer look

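For 15 of the 33 members tested, the difference between Piezo1-cKO and WT neutrophils was not the same in lung as in PB by the test of that difference (limma interaction, adjusted p below 0.05), although none passed the fold limit and 29.7% of all genes tested met the same condition upward and 18.5% downward. The interaction is the difference in lung minus the difference in PB on the log2(FPKM + 1) scale, with 2 libraries in each of the 4 groups. Besides Slc2a3 (0.51), Slc16a3 (0.49), Hif1a (0.49) and Ero1l (-0.75), which the report describes, it was higher for Hk2 at 0.50, Hk3 at 0.13, Pfkp at 0.22, Pfkfb4 at 0.24, Slc2a1 at 0.20 and Aldoc at 0.59. It was lower for Pgk1 at -0.53, Higd1a at -0.43, Mxi1 at -0.27, Bnip3 at -0.22 and Aldoa at -0.13. Hk2 and Aldoc were below 1 FPKM in every lung library here, where the log2(FPKM + 1) scale compresses differences. The part of that compression in their interactions was not tested. Aldoc was also lower in Piezo1-cKO lung, at 0.118 and 0.171 FPKM against 0.748 and 0.718 in WT lung, and reached 1 FPKM only in WT PB. Erythroid markers were raised in the Piezo1-cKO PB libraries that enter each of these values, and their part was not tested.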

How the results depend on the processing

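Counts of members called depended on scaling and on the fold limit. Rescaling each library by its median ratio took the members called lower in lung against PB from 5 to 2, in lung against BM from 12 to 3, in WT lung against PB of the Piezo1 experiment from 5 to 1 and in Piezo1-cKO lung against PB from 5 to 1, raised those called higher there from 4 to 8, and left 0 of the 1 called lower in Piezo1-cKO PB. With voom on recovered reads these counts were 1, 2, 3 and 2 lower and 8 higher, lung against BM had 11 called higher in place of 6, PB against BM had 6 higher in place of 3 and 2 lower in place of 4, and the interaction had 1 higher in place of 0. Among all genes tested, voom called 11.1%, 22.1%, 16.2% and 13.9% lower in the same order, and 17.3% higher in Piezo1-cKO lung against PB. It called 22% higher in lung against BM, 11.7% higher and 17.7% lower in PB against BM, and 10.1% higher in the interaction. A pseudocount of 0.1 gave 5 higher in PB against BM (9.81% of all genes) and 1 higher in the interaction (10.5%). With the adjusted p alone, 8 members were higher and 21 lower in lung against PB, 11 higher and 19 lower in lung against BM, 11 higher and 15 lower in PB against BM, 7 higher and 12 lower in Piezo1-cKO lung, 6 higher and 12 lower in Piezo1-cKO PB, 8 higher and 23 lower in WT lung against PB of the Piezo1 experiment, 8 higher and 22 lower in Piezo1-cKO lung against PB, and 9 higher and 6 lower in the interaction. Of all genes tested, in the same order, 85.5%, 92.6%, 73.1%, 50.75%, 49.7%, 89.0%, 84.5% and 48.2% passed the adjusted p alone in either direction. Leaving out 1 library gave 0 to 1 lower in Piezo1-cKO PB and 3 to 5 lower in WT lung against PB of the Piezo1 experiment, since too few libraries then reached the filter. The cause of the other shifts was not tested. Over all members and comparisons, no called value changed sign. Deviations of same-numbered replicates from their group means had correlations of -0.105 to 0.119. With 2 libraries a group such deviations mirror each other, and low correlations cannot exclude that same-numbered samples came from 1 mouse. Whether the numbers pair the samples is thus not known. The replicate block changed no call among 253 values, of which 56 were called. Without the filter and with 1 fit over all groups no call changed, and the interaction was not run in the latter. Members under 1 FPKM, such as Pfkm and P4ha2, lie below what these depths can compare.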
